A study of Mus musculus with 4 samples.

Results

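The natriuretic peptide system of the heart was described here through 8 genes out of 48432 gene entries of the authors' expression table. They were found in that table by their gene names, and each name had its own entry. The members are the peptide genes Nppa and Nppb, the protease genes Corin, Furin and Mme, and the receptor genes Npr1, Npr2 and Npr3. They were chosen by their FPKM values in the 2 groups, which were known when the set was proposed, so all of their levels and differences are given as description and none was tested. Values are FPKM, which count sequenced fragments relative to a transcript's length and the library's size. The mean of the groups reached 1 FPKM for all 8, and 11697 gene names in the table passed that level and were compared.

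Polyadenylated RNA was taken from heart muscle cells (cardiomyocytes), which had been freed from mouse hearts by Langendorff perfusion. Mice of both groups were of C57BL x FVB strain and had eaten food with doxycycline for 3 days. The control group has the genotype MHC and 2 libraries, and the overexpression group, Rbfox2 OE, has the genotype RbFox2 and 2 libraries. RBFOX2 is an RNA-binding regulator of splicing, and the series is about its non-muscle isoform and heart conduction in myotonic dystrophy. The labels do not spell out MHC, do not name the promoter that drives the transgene, give no age, and do not say whether the libraries of a group came from different animals.

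For every gene the table gave 1 value per group and the authors' bounds around it, whose level is not given in the sources used here. Below, a range in parentheses after an FPKM value gives those bounds, and where 2 values stand together the control comes first. There was no value per library, hence no spread between replicates, and the depth is unknown. Rbfox2 itself was listed at 14.7 FPKM in control cells and 293 FPKM in Rbfox2 OE cells, a ratio of 19.9 that matches the labels. Cardiomyocyte genes dominated both groups, as the tissue label says, with Myl2 at 24688 and 18007 FPKM. Myh6, another defining gene, was listed at 0 in both groups with the authors' status HIDATA, which marks loci with too many fragments to estimate.

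Natriuretic peptides are hormones that heart muscle cells release on stretch and load, and they promote salt and water excretion and relax vessels. Each is made as a precursor that a protease cuts, corin for the atrial peptide (ANP, from Nppa) and furin or corin for the B-type peptide (BNP, from Nppb). ANP and BNP act through the receptor guanylyl cyclase NPR1, which makes cyclic GMP, while NPR2 prefers the C-type peptide and NPR3 mainly removes peptides from the circulation. In the adult heart Nppa is high in the atria and low in the ventricles, and both Nppa and Nppb are known as genes that ventricular muscle switches back on under stress.

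What the peptides share is a ring of 17 residues closed by a pair of cysteines, which is the part the receptors bind. The bases that code for it in Nppb are shown beside those in Nppc, the gene of the C-type peptide, to let the rings be compared letter by letter. They were read from the GENCODE M21 transcripts on GRCm38, with the codons of the ring-closing cysteines in capitals.
Nppb: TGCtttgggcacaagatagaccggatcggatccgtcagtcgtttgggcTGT
Nppc: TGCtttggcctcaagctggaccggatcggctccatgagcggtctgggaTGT
The Nppb ring lies at chr4:147986464-147986514 on the plus strand, in codons 99 to 115 of 121. That of Nppc lies at chr1:86669667-86669717 on the minus strand and ends at the last codon, 126. Nppb and Nppc had 40 of 51 bases and 13 of 17 encoded residues in common.

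Nppa, the ANP precursor gene (chromosome 4, 148000722 to 148002079, plus strand), was much higher in Rbfox2 OE than in the control. It was listed at 118 FPKM (82.7 to 153) in control cells and 2178 FPKM (1567 to 2789) in Rbfox2 OE cells, a ratio of 18.5. The bounds were far from meeting, and on the scale of log2(FPKM + 1) the difference was 4.20, with 3.35 from the nearest bounds and 5.06 from the farthest. Among the 11697 genes compared its log2 ratio ranked 18 from the highest. Its share of all FPKM went from 0.0229% to 0.487%, and its level moved from percentile 96.9 to percentile 99.9 of the genes above 0. A gene annotated on the opposite strand, Gm13054, overlaps Nppa, and fragments of the pair can be told apart only if counting used strand, which is not given in the sources used here. Gm13054 was listed at 0.161 and 1.87 FPKM, a small fraction of Nppa in each group.

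Nppb, the BNP precursor gene (chromosome 4, 147985788 to 147987205, plus strand), was also higher, by far less. It was listed at 182 FPKM (128 to 235) in control cells and 403 FPKM (285 to 520) in Rbfox2 OE cells, a ratio of 2.21 and a log2 ratio of 1.14. The bounds were separate, and their nearest pair gave a log2 ratio of 0.28. No other annotated gene overlaps Nppb. The control bounds of Nppa and Nppb overlapped each other, so their order there was not separated, whereas in Rbfox2 OE Nppa lay above Nppb with separate bounds. Nppa made up 39.3% of the summed FPKM of the peptide pair in the control and 84.4% in Rbfox2 OE, and the ranges that their bounds allow, 26.0% to 54.3% and 75.1% to 90.7%, did not meet. The direction of Nppb depended on the scaling: divided by the summed FPKM of the fibroblast markers its log2 ratio was -0.10, and by that of the atrial markers, a scaling chosen after values were seen, it was -1.27. The same scalings left Nppa at 2.95 and 1.78.

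Corin, the membrane protease of heart muscle that activates ANP (chromosome 5, 72300025 to 72504473, minus strand), went the opposite way. It was listed at 58.7 FPKM (41.9 to 75.5) in control cells and 4.41 FPKM (2.95 to 5.86) in Rbfox2 OE cells, 13.3-fold lower. Its log2 ratio was -3.46, with -2.64 from the nearest and -4.27 from the farthest bounds, and it ranked 11 from the lowest of the genes compared. It passed from percentile 94.2 to percentile 64.6 of the genes above 0, and as listed it was the most abundant member after the peptides in the control and next to last in Rbfox2 OE. The 5 annotated genes that overlap it were listed at 0 in both groups, except AU023070 at 0.0629 FPKM in the control.

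Furin, the convertase of the secretory pathway that cuts many precursors including that of BNP (chromosome 7, 80388585 to 80405436, minus strand), was nearly level. It was listed at 37.6 FPKM (20.3 to 54.8) in control cells and 35.8 FPKM (22.7 to 48.9) in Rbfox2 OE cells, with a log2 ratio of -0.07. The bounds almost coincided. Of the 2 processing proteases, Corin and Furin, only Corin differed with separate bounds as deposited.

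**Figure D1:**
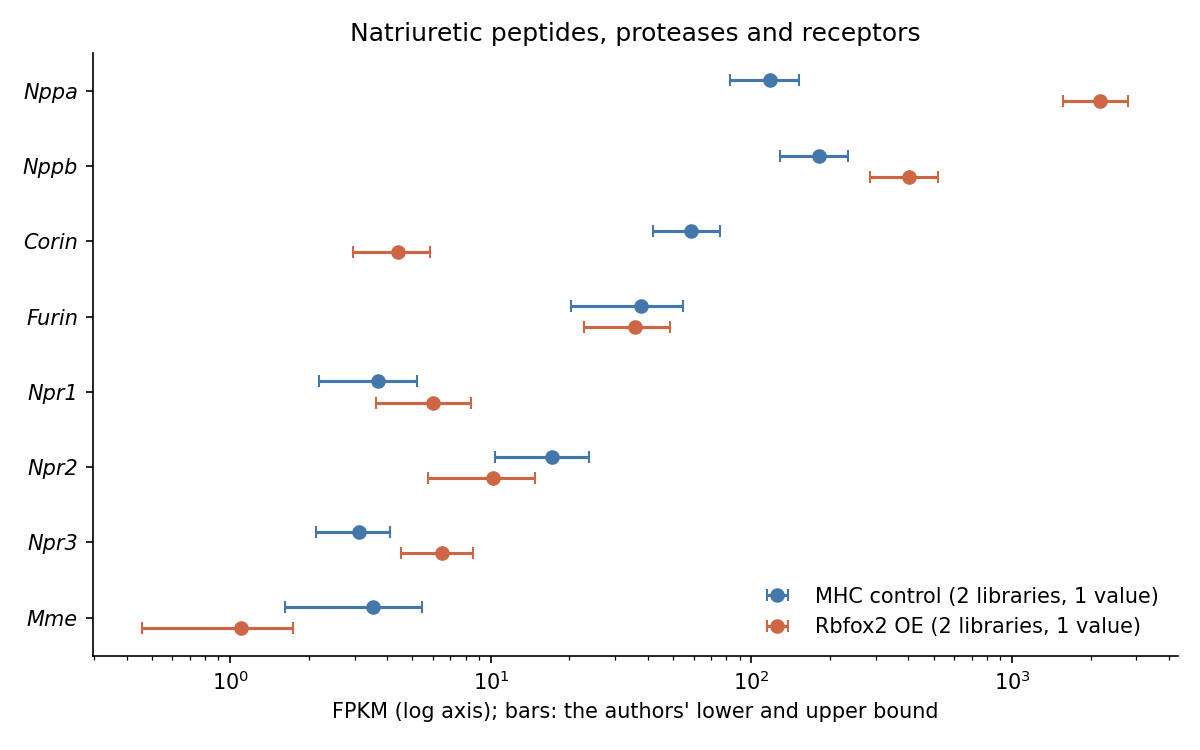
FPKM of each of the 8 members on a log axis, with 1 point per group (blue, MHC control; orange, Rbfox2 OE) and bars for the authors' lower and upper bound. Nppa and Nppb lie to the right in Rbfox2 OE and Corin lies to the left, while the bars of Furin, Npr1, Npr2 and Mme overlap.

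Of the receptors, Npr1, the guanylyl cyclase for ANP and BNP (chromosome 3, 90450591 to 90465866, minus strand), was listed at 3.70 FPKM (2.18 to 5.22) in control cells and 6.0 FPKM (3.63 to 8.37) in Rbfox2 OE cells. Its bounds overlapped, and its log2 ratio was 0.57. Npr2, the guanylyl cyclase for the C-type peptide (chromosome 4, 43631935 to 43651244, plus strand), was listed at 17.1 FPKM (10.4 to 23.9) in control cells and 10.2 FPKM (5.72 to 14.7) in Rbfox2 OE cells, with overlapping bounds and a log2 ratio of -0.69. Neither cyclase receptor was therefore separated between the groups. Npr3, the clearance receptor (chromosome 15, 11839896 to 11907287, minus strand), was listed at 3.13 FPKM (2.14 to 4.11) in control cells and 6.52 FPKM (4.52 to 8.51) in Rbfox2 OE cells. Its bounds were separate by a narrow margin, and its log2 ratio was 0.87, from 0.11 with the nearest bounds to 1.60 with the farthest. Divided by the fibroblast marker sum, the log2 ratio of Npr3 was -0.16 and that of Npr1 was -0.46, against -1.28 for Furin. Divided by the endothelial marker sum, Npr1 was at -0.09.

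Mme codes for neprilysin, a surface peptidase that degrades natriuretic and other peptides (chromosome 3, 63241537 to 63386030, plus strand). It was listed at 3.53 FPKM (1.62 to 5.44) in control cells and 1.10 FPKM (0.458 to 1.74) in Rbfox2 OE cells, 3.21-fold lower as listed. The bounds overlapped by a narrow margin, since the nearest pair gave a log2 ratio of 0.06 against -1.11 for the values themselves. Npr3 just inside and Mme just outside the criterion of separate bounds show how thin the line between them is at these levels. The distance from value to bound ran from 28.1% of the value for Nppa in Rbfox2 OE to 58.3% for Mme in Rbfox2 OE. It did not follow level closely. In the control it was 31.5% for Npr3, the least abundant member there, against 54.0% for Mme and 45.8% for Furin.

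Counted over the 8 members, 3 were higher with separate bounds (Nppa, Nppb and Npr3), 1 was lower (Corin) and 4 overlapped. Among all genes compared, 780 (6.67%) were higher and 1091 (9.33%) lower by the same criterion, 16.0% in all. By a change of at least 2-fold in either direction, with 1 FPKM added to each value, 4 members were counted (Nppa, Nppb, Corin and Mme), beside 17.0% of the genes compared. The members were proposed on these same values, so nothing is read from the difference between their shares and those of all genes. The median log2 ratio of all genes compared was -0.06. Rescaling the groups to their summed FPKM without mitochondrial genes and the 10 most abundant genes raised log2 ratios of the values themselves by 0.16, and those with 1 FPKM added by less at low levels. It put that median at 0.07 and changed the split of all genes to 1029 higher and 821 lower, 44.4% lower in place of 58.3%. Under it Furin's log2 ratio was 0.08, above 0, and per cardiomyocyte marker sum it was 0.59.

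**Figure D2:**
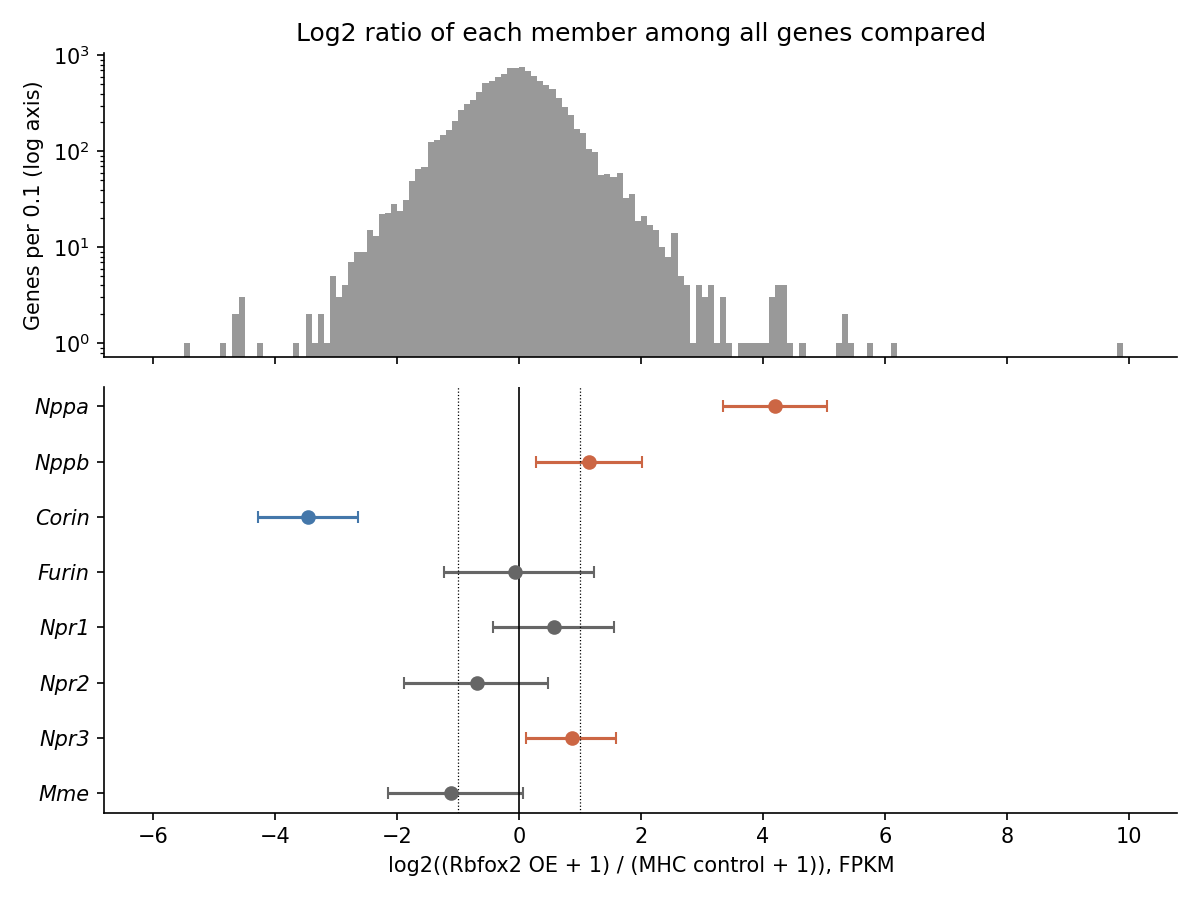
Upper panel, the number of genes compared per 0.1 of log2 ratio (log axis); lower panel, each member's log2 ratio (Rbfox2 OE to control, 1 FPKM added), with bars from the nearest to the farthest pair of bounds (orange, higher with separate bounds; blue, lower; grey, overlapping). Nppa at 4.20 and Corin at -3.46 lie in the thin tails of the distribution, and the other 6 members lie between -1.11 and 1.14.

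Set against Corin, the peptide transcripts had to change by more than either gene alone, because they were higher and Corin was lower. With separate bounds for each gene the ranges had to stay apart too, so the peptide ratios below restate those differences. The quantity is a ratio of FPKM values, which are per length, within each group. Nppa was 2.01 times Corin in the control (1.10 to 3.64 from the bounds) and 494 times Corin in Rbfox2 OE (267 to 945). The ranges did not meet, and the ratio differed 246-fold between the groups, 7.94 on the log2 scale, or 6.20 with every bound taken at its least favourable. Nppb was 3.10 times Corin in the control (1.70 to 5.62) and 91.3 times in Rbfox2 OE (48.6 to 176), a 29.5-fold difference. Furin was 0.640 times Corin in the control (0.270 to 1.31), so the proteases were not separated there, and 8.12 times Corin in Rbfox2 OE (3.88 to 16.6). A ratio within a group does not depend on how the groups were scaled to each other, so these differences are the same under every scaling tried. They are ratios of transcripts, and neither precursor nor cut peptide was measured.

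Among the receptors, the summed FPKM of Npr1, Npr2 and Npr3 was nearly the same in both groups, 24.0 in the control and 22.7 in Rbfox2 OE. Npr2 made up 71.5% of it in the control and 45.0% in Rbfox2 OE, but the ranges from the bounds, 52.7% to 84.7% and 25.3% to 64.4%, overlapped. Npr3 made up 13.1% and 28.7%, and Npr1 made up 15.4% and 26.4%, also with overlapping ranges. No receptor share was thus separated between the groups. In the control Npr2 lay above both other receptors with separate bounds, whereas in Rbfox2 OE the bounds of all 3 receptors overlapped. Corin stood at the level of the receptors in Rbfox2 OE, with bounds that overlapped those of all 3, whereas in the control its lower bound lay above the upper bound of each receptor.

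**Figure D3:**
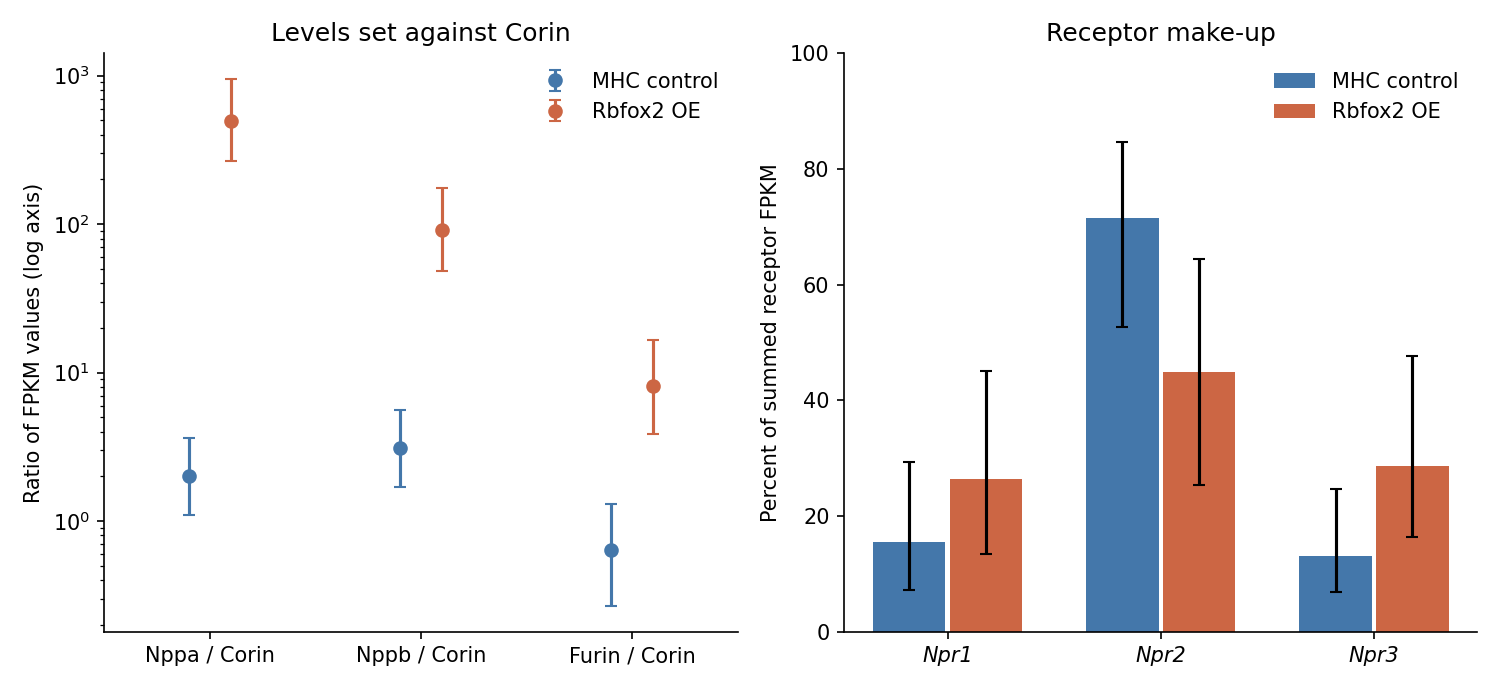
Left, FPKM of Nppa, Nppb and Furin over that of Corin in each group on a log axis; right, the percent of the summed receptor FPKM that Npr1, Npr2 and Npr3 take. Bars give the range that the authors' bounds allow: the ratios to Corin do not overlap between the groups, and the receptor shares do.

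Among other peptides and peptide-processing genes, none of those compared was separated between the groups. Of 18 genes on that list 10 were compared, and 0 were higher and 0 were lower by separate bounds, beside 16.0% called among all genes compared. Nothing is read from that count in so short a list. The median log2 ratio was -0.08 beside -0.06 for all genes compared. Single log2 ratios ran from -0.82 for Spint2 to 0.76 for Ece1, both named after their values were seen. The lower bounds of Ece1 were 0 in both groups, so it could not have been called. Nppc and Ostn, which codes for osteocrin, a decoy ligand of the clearance receptor, were near 0, at 0.0160 and 0.0949 FPKM in the control and 0.0871 and 0.00933 FPKM in Rbfox2 OE. Pcsk6, the convertase that activates corin, was listed at 10.8 and 11.9 FPKM, and Pam, an amidating enzyme stored with ANP in atrial granules, at 204 and 192 FPKM. Both had overlapping bounds, so the transcript of Corin's activator was not separated between the groups.

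Downstream of the receptors, 12 of 16 genes of cyclic GMP signalling were compared. By separate bounds 2 were higher and 1 lower, beside 6.67% and 9.33% of all genes compared, and the median log2 ratio was -0.03. All 3 code for phosphodiesterases, which break down cyclic nucleotides and of which the list holds several. Pde3a at 21.3 and 7.95 FPKM (log2 ratio -1.31) and Pde2a at 16.6 and 14.0 FPKM had overlapping bounds. Both were named after their values were seen. Pde1c was lower, at 12.5 FPKM in control cells and 1.76 FPKM in Rbfox2 OE cells, a log2 ratio of -2.30. Pde1a was higher, at 1.45 and 6.04 FPKM (log2 ratio 1.52), and Pde9a, which is selective for cyclic GMP, was higher at 1.08 and 3.75 FPKM (log2 ratio 1.19). Prkg1, the cyclic GMP-dependent kinase, was listed at 5.24 and 2.22 FPKM with overlapping bounds, as was Rgs2, a G protein regulator that this kinase acts on, at 27.4 and 18.6 FPKM.

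Of 21 genes of transcription factors known to act on Nppa or Nppb 20 were compared, 2 were higher and 1 lower by separate bounds, and the median log2 ratio was -0.15. That share is near the 16.0% of all genes compared. Nr2f2, a factor of atrial identity that is also on the atrial marker list, was listed at 2.06 and 5.14 FPKM and was higher. Nfatc3, a calcineurin-dependent factor, was higher at 5.65 and 10.7 FPKM, and Zfpm2, a cofactor of GATA4, was lower at 6.44 and 2.80 FPKM. Gata4 was listed at 44.9 and 36.1 FPKM and Mef2d at 78.8 and 51.9 FPKM, both with overlapping bounds.

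Genes of other vasoactive systems differed in both directions. Of 16 genes 13 were compared, and 2 were higher and 3 lower by separate bounds, beside 6.67% and 9.33% of all genes compared. The median log2 ratio of the 13 was 0.43. Agtr1a, the angiotensin II receptor, was lower, at 23.7 FPKM in control cells and 4.94 FPKM in Rbfox2 OE cells (log2 ratio -2.05). Ace, the enzyme that makes angiotensin II, was higher, at 6.41 and 23.0 FPKM (log2 ratio 1.69). Nr3c2, the mineralocorticoid receptor, was lower at 5.95 and 1.92 FPKM. Edn1, the endothelin precursor gene, was higher at 1.14 and 3.53 FPKM. Apln, the apelin gene, was the other gene that was lower, at 3.94 and 1.47 FPKM, and was named after its values were seen. Ramp2, a partner of the adrenomedullin receptor, was listed at 26.4 and 49.1 FPKM with overlapping bounds.

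Markers of several cell types moved beside the members, and among them Myh6 alone was listed at 0 in both groups. In bulk RNA fewer cells of a type and less RNA per cell cannot be told apart. Beside the marker counts here and in the paragraphs on cardiomyocyte and non-muscle markers, 6.67% of all genes compared were higher and 9.33% lower. Of 12 atrial markers 10 were compared, 6 were higher and 1 lower by separate bounds, the median log2 ratio was 1.44, and their summed FPKM was 198 in the control and 1061 in Rbfox2 OE, 5.36-fold higher. Myl4 and Myl7, the light chains of atrial myosin, were listed at 51.0 and 467 FPKM and at 49.0 and 395 FPKM. Sln, the sarcolipin gene, was listed at 21.4 and 109 FPKM, and Bmp10, a growth factor gene of the atria, at 0.512 and 6.84 FPKM. Kcnj3, an atrial potassium channel gene named after its values were seen, went the other way, from 29.2 FPKM in control cells with a log2 ratio of -1.45. Nppa is itself atrial in the adult heart, and its ratio of 18.5 lay above the 5.36 of this sum. The ratios of single atrial markers compared ran from 0.343 for Kcnj3 to 13.4 for Bmp10, with Myl4 at 9.16 and Myl7 at 8.07. The part of the atrial markers in the Nppa and Nppb levels was not tested, and the labels do not say which chambers the cells came from.

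Several cardiomyocyte markers were lower. Of 11 compared, 0 were higher and 5 lower by separate bounds, with a median log2 ratio of -0.70 and a summed FPKM of 64550 and 40553. Pln, the phospholamban gene, was listed at 2613 and 488 FPKM, and Actc1, cardiac actin, at 6867 and 3013 FPKM. The 13.3-fold lower level of Corin, a gene of cardiomyocytes in the heart, exceeded the 1.59-fold lower marker sum, and per unit of that sum its log2 ratio was -2.86. Single markers compared ran from 5.43-fold lower for Ryr2 to 1.52-fold higher for Ttn, which was named after its values were seen. The sum holds Myh6 at 0, and the part of cell content in the level of Corin was not tested. Of the 5 ventricular markers 0 were separated in either direction, with a median of -0.32.

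Many markers of non-muscle cells were higher. Of the 10 endothelial markers 3 were higher and 0 lower (median log2 ratio 0.66, summed FPKM 259 and 451), with Cdh5, a junction protein gene of endothelium, at 47.5 and 88.0 FPKM. Of the 10 fibroblast markers 7 were higher and 0 lower (median 1.28, summed FPKM 239 and 569), with Dcn, a matrix proteoglycan gene, at 147 and 301 FPKM. Of 8 macrophage and leukocyte markers 7 were higher (median 1.58, summed FPKM 87.9 and 316), with Lyz2, lysozyme, at 41.3 and 170 FPKM. Npr1 and Npr3 are expressed in endothelium and endocardium. Of the 5 endocardial markers compared 3 were higher (median 0.70, summed FPKM 37.1 and 72.5), among them Vwf at 11.2 and 28.4 FPKM. Nfatc1, an endocardial marker named after its values were seen, was listed at 5.27 and 4.42 FPKM with overlapping bounds. Smooth muscle and pericyte markers were 3 higher and 1 lower of 8 (median 0.72, summed FPKM 904 and 1164), and epicardial markers 3 higher of 4 (median 0.98, summed FPKM 10.8 and 25.2). Npr3 had a log2 ratio of 0.87, within the range of these medians. That of Npr1 was 0.57, below each of them, but 0.70 without the added 1 FPKM. The bounds of Npr1 allowed -0.43 to 1.56, so its place beside the medians was not fixed. The part of those cells in the receptor levels was not tested.

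**Figure D4:**
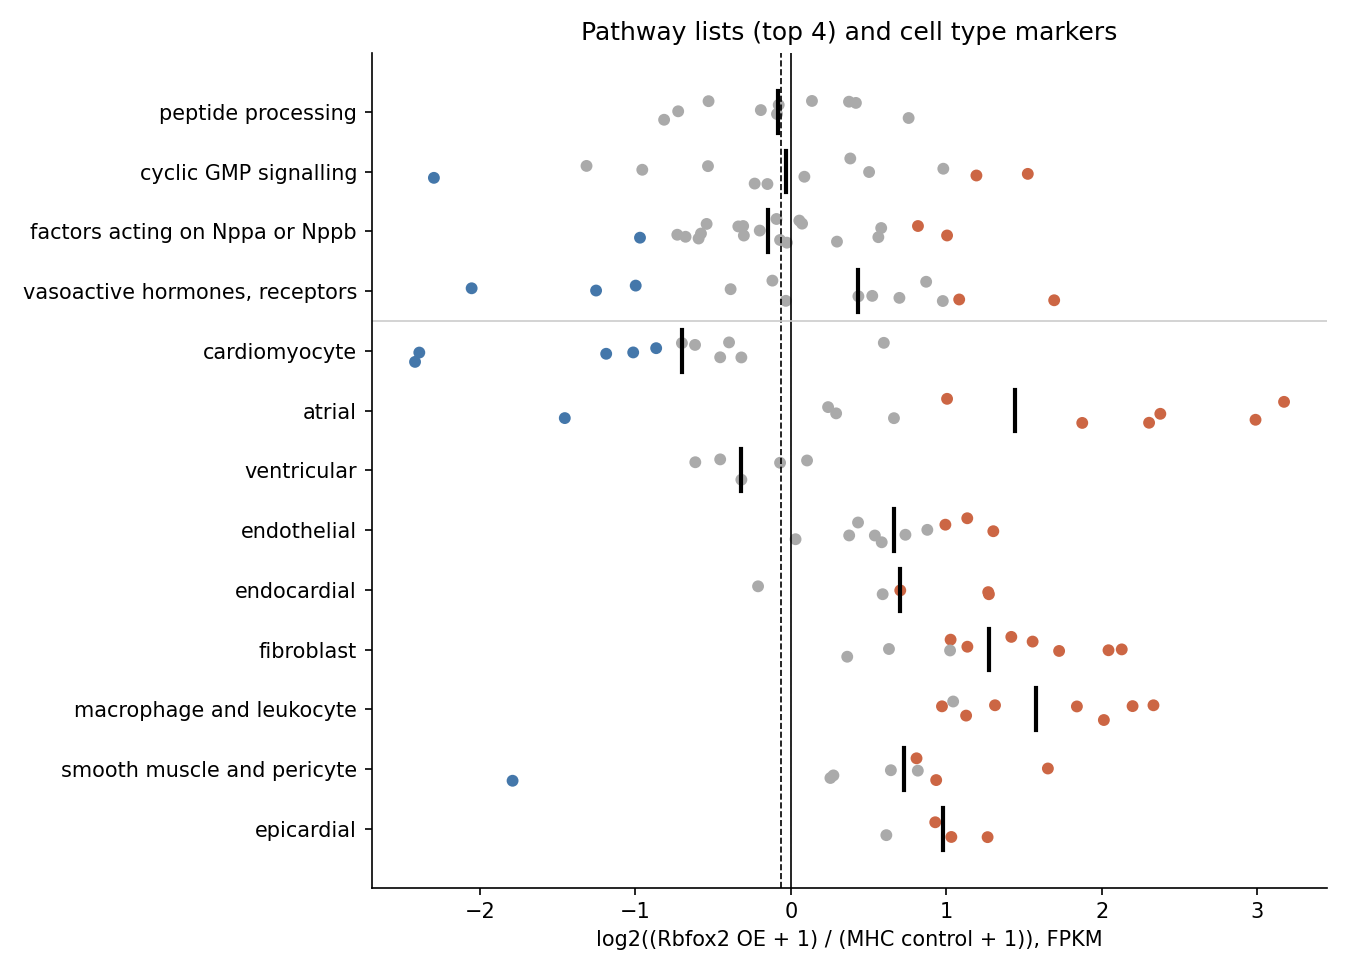
Log2 ratio (Rbfox2 OE to control, 1 FPKM added) of each gene compared on 4 pathway lists (top) and 9 marker lists (orange, higher with separate bounds; blue, lower; grey, overlapping). Short vertical bars are list medians and the dashed line is the median of all genes compared, -0.06; atrial, fibroblast and macrophage medians lie at 1.28 or more, and that of peptide processing at -0.08.

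Nppb and Nppa are neighbours on chromosome 4, with 13516 bases between them, and Nppb comes first on their shared strand. Within 250 kb on either side 25 other annotated genes were taken, of which 13 were compared. None (0) was higher by separate bounds, 3 were lower and 10 overlapped, beside 6.67% higher and 9.33% lower among all genes compared. The median log2 ratio of the 13 was -0.29. Mfn2, a gene of mitochondrial fusion, was lower at 212 and 75.7 FPKM, and so were Fv1 at 6.89 and 2.43 FPKM and Fbxo44 at 16.7 and 7.21 FPKM. The genes on both flanks of the pair had overlapping bounds: 2510039O18Rik on the Nppb side at 16.1 and 16.3 FPKM, and Clcn6, a chloride transporter gene beyond Nppa, at 2.37 and 1.77 FPKM. Plod1, Miip, Agtrap, Mad2l2, Fbxo6, Zfp933 and Gm13157 likewise overlapped, with log2 ratios from -0.40 for Agtrap to 0.18 for Miip.

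Around Corin 20 genes are annotated within the same distance, and the 3 compared all overlapped, beside 16.0% called among all genes compared. Commd8 was listed at 15.4 and 13.2 FPKM, Atp10d at 3.17 and 3.02 FPKM, and Nfxl1, upstream of Corin, at 1.18 and 1.85 FPKM. Their log2 ratios ran from -0.20 to 0.39, against -3.46 for Corin. None of the neighbours compared here was thus separated in the direction of its member. Most genes compared were not separated either, so nothing is read from this for so few neighbours.

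**Figure D5:**
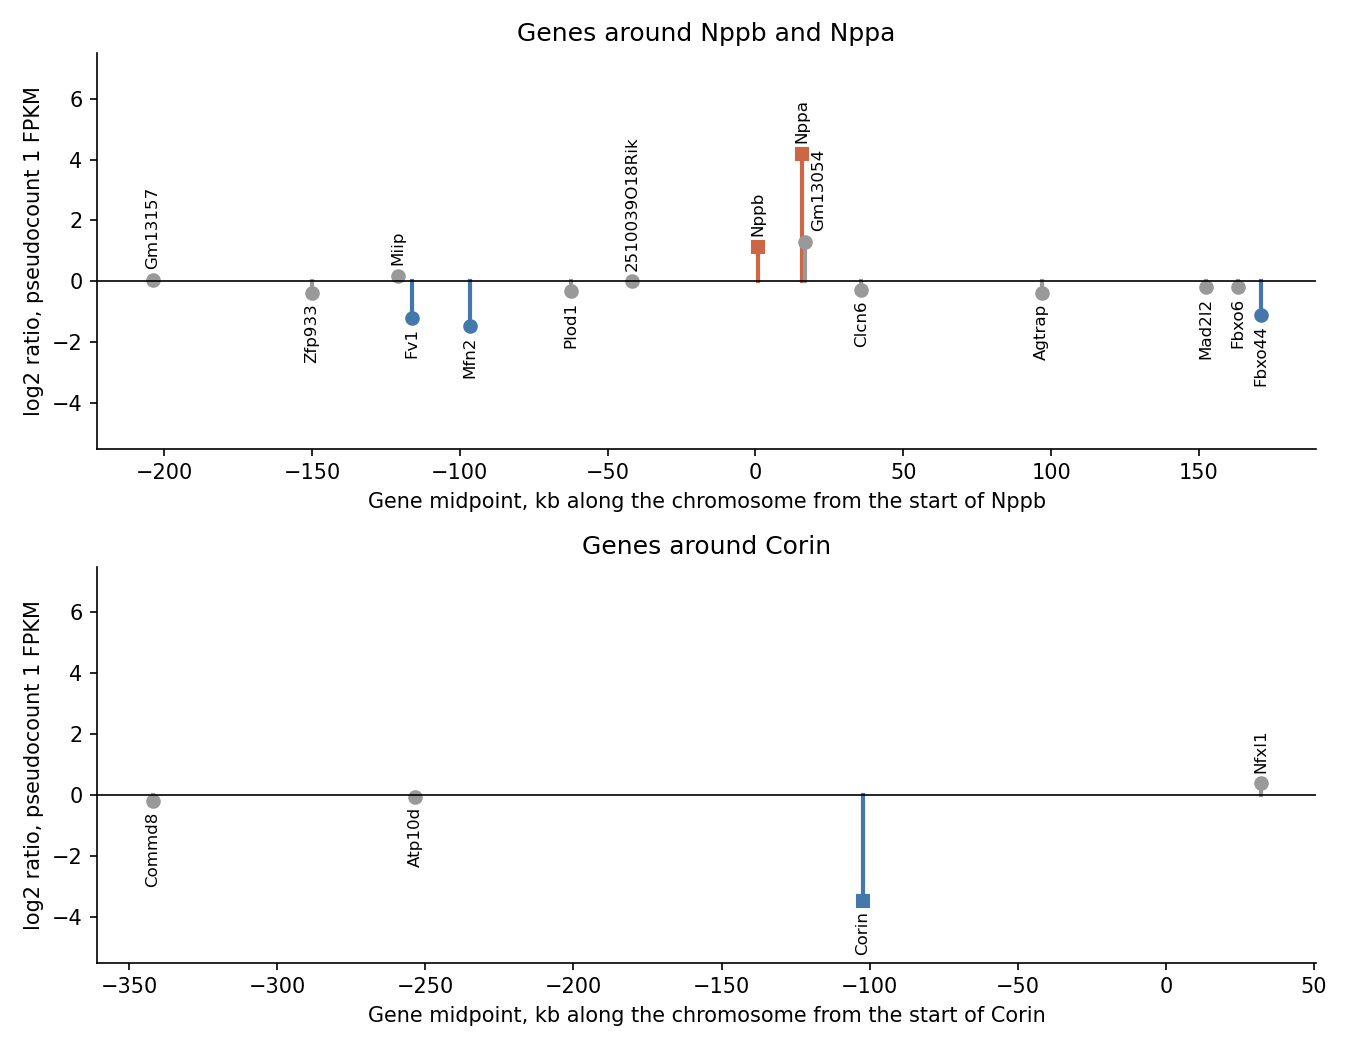
Log2 ratio with 1 FPKM added for the genes compared within 250 kb of Nppb and Nppa (top) and of Corin (bottom), at the gene's midpoint in kb along the chromosome (squares, members; circles, neighbours; orange, higher with separate bounds; blue, lower; grey, overlapping). The peptide pair at 1.14 and 4.20 stands beside neighbours at 0.18 or less, apart from the overlapping antisense gene Gm13054 at 1.31.

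The sequence upstream of Nppa is shown because it and Nppb were both higher while their flanking genes were not. The 250 bases before the RefSeq start of Nppa on GRCm38.p6, chr4:148000472-148000721 on the plus strand, held 1 match each to 4 elements, which are in capitals. From the far end these are a T-box element, which is bound by factors such as TBX5 and spelled TCACACC, and an element of the cardiac factor NKX2-5, spelled TNAAGTG. Nearer to the start come a GATA element and a TATA box, a promoter element found upstream of some starts, spelled TATAAA. For GATA the search took either TGATAA or the variant with the first letter changed, AGATAA. The motifs were chosen after the sequences had been seen, and were searched on both strands except TATA, which was searched on the gene's strand.
Nppa upstream: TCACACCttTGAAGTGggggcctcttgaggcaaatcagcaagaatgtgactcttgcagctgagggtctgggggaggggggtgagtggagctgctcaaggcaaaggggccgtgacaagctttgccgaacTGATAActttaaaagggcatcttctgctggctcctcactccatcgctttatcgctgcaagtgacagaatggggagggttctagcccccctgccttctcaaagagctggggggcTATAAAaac
The matches begin 250, 241, 122 and 9 bases before the start and do not overlap. These distances are from the annotated start, and the TATA match of Nppb begins farther from its own, at 31 bases. Of 32851 promoter windows of this length, 3.33% held the T-box element, 10.1% the NKX2-5 element, 16.6% a GATA element and 7.59% the TATA box. Each is a match of letters and not a shown binding site.

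Nppb had 2 GATA matches close together, 95 and 84 bases before its RefSeq start, on the plus strand at chr4:147985801-147985830. They are in capitals in the 30 bases below. The RefSeq start of Nppb lies 112 bases inside the gene as GENCODE gives it, so by the GENCODE coordinates printed above these bases are part of the gene, whereas for Nppa both starts are the same base.
Nppb GATA: cagcTGATAAatcagAGATAAccccacccc
Its window also held an MCAT element (GGAATG, in 12.6% of windows) 105 bases and a TATA box 31 bases before the start, and neither a T-box nor an NKX2-5 match. The window of Corin held none of these elements, nor did any of the 3 windows hold the CArG element, which 1.47% of all windows held. Corin's RefSeq start lies 67 bases upstream of its GENCODE start, so the bases between those starts were not searched. GATA4 binds the GATA letters, and Gata4 is the factor listed above at 44.9 and 36.1 FPKM.

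RBFOX proteins bind RNA at TGCATG, so the longest coding transcript of each member was searched for it on the RNA's own strand. That of Corin, 4862 bases long, held 4 copies. Of 1155 other genes compared with transcripts within 10% of that length, 72.7% held at least 1 copy and 6.15% held 4 or more. Mme and Npr3 held 2 copies each and Npr2 held 1, in each case the median of the genes within 10% of its length. Nppa, Nppb, Furin and Npr1 held 0. Among genes of like length, 14.3% for Nppa and 12.6% for Nppb held any copy, so 0 was the usual count at those lengths. For Furin and Npr1 those shares were 69.5% and 66.9%. The copies in Corin are shown with 12 bases on either side, 5′ to 3′ in the transcript, with the element in capitals.
Corin 1: aacacaagcaccTGCATGaacatcactcac
Corin 2: actttggaactcTGCATGaatttgccctac
Corin 3: accgtggactccTGCATGggagacagcggt
Corin 4: gcagcaaaatgtTGCATGgagtatataaca
The elements lie on the minus strand at chr5:72435432-72435437, chr5:72343083-72343088, chr5:72302791-72302796 and chr5:72300566-72300571, the first 3 in coding exons and the last in the 3′ untranslated region. Introns, where RBFOX proteins are best known to act on splicing, were not searched, and a match shows no binding. The deposited levels are for whole genes and do not separate isoforms of Corin.

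The genes whose 2 group levels were most like those of Nppa and Corin were found among 11092 protein-coding genes by the straight-line distance between their log2(FPKM + 1) values in the 2 groups. Likeness over 2 values says little more than that both level and direction were near. Nearest to Nppa was Acta1, the actin of skeletal muscle and of the stressed heart, at 137 FPKM in control cells and 1400 FPKM in Rbfox2 OE cells, a distance of 0.67. Acta1's control bounds ran from 0 to 293 FPKM, so that its control level was poorly fixed. The next genes, Mt2, Eef1a1, Apoe and Rpsa, lay at distances of 1.83 to 2.33, with log2 ratios of 2.32, 1.60, 1.07 and 1.0 against 4.20 for Nppa. Nppa thus had 1 near neighbour in level. Nearest to Corin was Ttll1, a tubulin-modifying enzyme gene, at 51.0 and 5.43 FPKM (distance 0.32). Efnb3, an ephrin gene, followed at 47.2 and 3.52 FPKM, and Cacnb2, a subunit gene of the cardiac calcium channel, at 43.4 and 4.49 FPKM. Slc25a13 at 47.1 and 5.98 FPKM and Efcab2 at 49.0 and 6.36 FPKM completed the 5, all with separate bounds.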

How the data were processed

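Values were deposited as FPKM by the authors, per the file headers, with 1 value, a lower and an upper bound and a status for each of 48432 gene entries and each of 2 groups. The submitters' processing notes name bcl2fastq 2.17.1.14, Trimmomatic, STAR 2.4.2a, Picard 1.119, HTSeq, DESeq2 and Cuffdiff 2.2.1, and the builds GRCm38 and mm10, without role or order. Normalization mode, annotation, strand setting and level of the bounds are not given in the sources used here. Libraries are stranded per the labels. Both FPKM columns combine the 2 libraries of a group, and the number of unused columns per sample was 0, so no test, no replicate error and no counting interval could be had, and depth is unknown.

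Entries sharing a name (110 names) were summed, and 11697 names with a mean of at least 1 FPKM were compared by log2 ratio after adding 1 FPKM to both values, a pseudocount that understates low genes. A gene was called where the authors' bounds did not overlap or where the change was at least 2-fold. Ranges of ratios and shares take each bound at its extreme. Of the identifiers, 48053 (99.2%) matched GENCODE M21 on GRCm38, the source of coordinates and transcripts, while promoters came from RefSeq on GRCm38.p6.

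The members and lists were chosen with earlier results of these data known. Named genes are the 8 members, Rbfox2, up to 4 genes of each list with separate bounds and the largest log2 ratios (fewer are printed for marker lists), Nppc, Ostn, Pcsk6, Prkg1, Gata4, the most abundant gene of each list, the neighbours compared and the 5 genes nearest to Nppa and to Corin. Alternatives covered pseudocount, filter, threshold, repeated names and scaling. Calculations used Python 3.11.15, pandas 2.3.3 and numpy 2.4.6. Of them, only the calls by separate bounds and by 2-fold change were tested on simulated data. Of the gene neighbours and coding sequences, 1 each is not reported here.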

Additional observations from a re-analysis of the deposited data

How the results depend on the processing

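Of 74 member log2 ratios recomputed under other settings, 67 kept their sign and 7 did not, in 4 members: Furin, Nppb and Npr1 in 2 each and Npr3 in 1. Changing the pseudocount or the handling of repeated names cannot change a sign here. Only the scalings and centring on the median gene could, so the 67 overstate how far the signs were put to the test. The 7 include 3 of members with separate bounds. Per fibroblast marker sum, Nppa was at 2.95, Corin at -4.60 and Furin at -1.28, and the sign changed for Nppb at -0.10, Npr1 at -0.46 and Npr3 at -0.16. Npr1 also changed sign per endothelial marker sum (-0.09), and Furin per cardiomyocyte marker sum (0.59) and in the rescaling without mitochondrial and top genes (0.08). Per atrial marker sum, chosen after seeing the data, Nppa was at 1.78 and Nppb at -1.27, with the sign changed. These scalings shift log2 ratios of the values themselves by -1.25 and -2.42 by construction, and those with 1 FPKM added by less at low levels. Nppa stayed above 0 in all 10 alternatives, and Corin, Npr2 and Mme stayed below 0 in all 9 each, among them those that could not change a sign. At a 4-fold threshold 1 member was higher and 1 lower, and with a pseudocount of 5 FPKM 1 was lower by at least 2-fold. With a mean of at least 5 FPKM, 446 genes were higher by separate bounds and 492 by at least 2-fold. With a pseudocount of 5 FPKM, 304 genes were at least 2-fold higher and 559 lower. Of 54 list counts 50 were within 1.5 times, and by the 2-fold rule in place of separate bounds cyclic GMP genes were 2 lower, smooth muscle markers 1 higher, and transcription factors 1 higher and 0 lower. No paired analysis was possible because each group has 1 deposited value, and for the same reason no library could be left out.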
